A study of Mus musculus with 16 samples.

Results

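Ada, Nt5e, Slc28a2, Enpp3, Xdh, Pnp and Klf4 are 7 genes of purine metabolism and of the transcription factor program at the villus tip of the small intestine. They were taken by gene symbol from both deposited expression tables of a mouse study, and all 7 of 7 were found in each table among 24420 listed features. The enterocyte table held 5 libraries of isolated primary enterocytes from Mfge8 null mice and 4 from wild type (WT) mice. The second table held 3 libraries of small intestinal RNA from Cd36 null mice and 4 from WT mice. All 16 libraries in the 4 groups were labelled strain C57B6, and the labels gave no treatment, age, sex or intestinal segment, nor how the null alleles were made. Mfge8 encodes a secreted glycoprotein that bridges phosphatidylserine and integrins, and Cd36 encodes a fatty acid receptor of the plasma membrane. Since the labels do not tie each replicate to its own animal, a p-value here reflects library-to-library spread, which may be partly technical.

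Enterocytes are born in the crypt and move up the villus until they are shed at its tip. In mouse, the genes of extracellular nucleotide breakdown, adenosine conversion and purine uptake are known to be switched on late in this journey, so that the tip handles nucleotides and adenosine at the surface facing the lumen. Enpp3, an ectonucleotide pyrophosphatase, releases AMP from nucleotides outside the cell, and Nt5e (CD73) removes its phosphate to give adenosine. Slc28a2 (CNT2) carries purine nucleosides into the cell with sodium. Ada converts adenosine to inosine, Pnp splits inosine to hypoxanthine, and Xdh oxidises hypoxanthine through xanthine to urate. Klf4 is a zinc finger factor of differentiated gut epithelium that recognises CACCC-type sequences.

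Sequences upstream of Ada and Nt5e are shown because the levels of these 2 genes followed each other most closely across the enterocyte libraries, as described with the correlations. Each is the 250 bases before the transcription start in RefSeq on GRCm38.p6, 5' to 3' on the gene's strand, with every CACCC and its reverse complement GGGTG in capitals. The Ada sequence is chr2:163750240-163750489 on the minus strand. The Nt5e sequence is chr9:88327359-88327608 on the plus strand.
Ada: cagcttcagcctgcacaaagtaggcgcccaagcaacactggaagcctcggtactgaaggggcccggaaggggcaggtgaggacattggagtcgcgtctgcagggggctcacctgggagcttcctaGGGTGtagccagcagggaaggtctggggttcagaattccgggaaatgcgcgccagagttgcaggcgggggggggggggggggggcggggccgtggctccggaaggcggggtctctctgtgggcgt
Nt5e: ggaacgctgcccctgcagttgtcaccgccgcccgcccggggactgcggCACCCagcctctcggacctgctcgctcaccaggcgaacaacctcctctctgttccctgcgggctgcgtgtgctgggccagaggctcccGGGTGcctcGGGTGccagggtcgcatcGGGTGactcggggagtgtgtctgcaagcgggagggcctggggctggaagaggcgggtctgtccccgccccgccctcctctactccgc
The Ada window held 1 such motif and the Nt5e window 4, and the Slc28a2 window, which runs into an annotated transcript of the gene and is not printed, held 1. The windows of Klf4, Enpp3 and Pnp held 0, and Xdh was not examined. For comparison, 52% of 32851 mouse promoters of the same length held at least 1 such motif on either strand and 21.1% held 2 or more. GC content was 67.2% for Ada, 72% for Nt5e and 45.2% for Slc28a2, so the 3 windows differ in base composition. A match describes the letters only and shows no binding.

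The genes lie on different chromosomes, apart from Ada and Slc28a2, which are both on chromosome 2, and none lies on chromosome 7 with Mfge8 or chromosome 5 with Cd36. On GRCm38.p6, RefSeq places Ada at chr2:163726571-163750239, Slc28a2 at chr2:122426357-122461152, Nt5e at chr9:88327609-88372089 and Enpp3 at chr10:24773814-24836195. It places Xdh at chr17:73883895-73950397, Klf4 at chr4:55527137-55532475 and Pnp at chr14:50944303-50953412. Pnp is followed on the same strand by Pnp2, a related gene that encodes the same activity. Of the 1488 stretches of 100 bases in annotated Pnp2 transcripts, 15.0% also occur in Pnp transcripts, and 5.6% of the 3967 stretches of Pnp occur in Pnp2. A read of 100 bases from there fits both, so the split between them is uncertain. All such shares given here cover whole transcripts, and the part near the poly(A) end was not counted apart. Both genes also overlap Gm49342, a protein-coding gene on the same strand that is absent from the listed features. Gm49342 shares 15.6% of the stretches of Pnp and 14.45% of those of Pnp2. Slc28a2 shares 18.0% of its stretches with Gm14085, which had at most 3 reads in any enterocyte library and 4 in any small intestine library. Ada, Nt5e, Enpp3 and Klf4 shared none with another annotated gene.

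Values are normalised read counts from a 3' tag assay, in which a transcript gives about 1 read near its poly(A) end, so levels can be set side by side between genes without a correction for length. Depth was 1618369 to 2459812 reads in the enterocyte libraries and 850297 to 1000694 in the small intestine libraries. Mfge8 fell to 3.45 ± 2.43 normalised reads in Mfge8 null enterocytes, against 14.8 ± 6.70 in WT enterocytes (SD, n = 5 and 4, limma adjusted p = 0.0362). Cd36 was at 6.48 to 15.97 normalised reads in Cd36 null intestine and at 111 to 116 in WT intestine. Libraries of 1 genotype in the small intestine agreed at about sampling noise: the chi-square statistic per degree of freedom of their read counts was 0.987 to 1.12, against 6.26 to 20.2 between enterocyte libraries of 1 genotype. The small intestine libraries were therefore counted as 1 sample per genotype and were not tested. Of their 9 pairs within a genotype, 5 still departed from sampling noise at a chi-square p under 0.05. Intervals of counting error thus leave out a small further spread. The 6 enterocyte markers, such as Vil1 and Fabp2, summed to 28851 to 60059 normalised reads in Mfge8 null and 28018 to 41435 in WT enterocyte libraries. In these libraries the summed level of 5 smooth muscle markers was at most 3.92 normalised reads. The 8 crypt and proliferation markers summed to 82.2 to 162 in Mfge8 null and 69.8 to 135 in WT enterocyte libraries, with Olfm4, a crypt stem cell marker, at 0 in all of them and Top2a, a gene of dividing cells, at 31.97 ± 15.1 and 17.98 ± 4.81 (SD, n = 5 and 4). T cell markers were present, as given with the correlations.

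The 7 genes covered a wide range of levels, and the order differed between isolated enterocytes and small intestine. In Mfge8 null enterocytes Klf4 was the most abundant, with a mean of 1619.7 RPM (reads scaled to the same library total), against 1199.6 RPM in WT enterocytes. Slc28a2 had 821 RPM in Mfge8 null and 572 in WT enterocytes, and Ada had 777 and 586. Xdh, Enpp3 and Pnp lay between 114 and 187 RPM in Mfge8 null enterocytes and between 120.1 and 219 in WT enterocytes. Nt5e was the lowest, with 45.3 in Mfge8 null and 36.2 in WT enterocytes. Within each genotype, Ada and Slc28a2 differed by less than the SD of each between libraries. Xdh and Enpp3 differed by less than their larger SD in Mfge8 null and by less than either SD in WT enterocytes. Klf4 stood above its neighbour, and Pnp above Nt5e, by more than the SD of either. Enpp3 exceeded Pnp by more than either SD in WT enterocytes but by less than the SD of Enpp3 in Mfge8 null enterocytes.

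In the small intestine, Ada, Xdh and Enpp3 took the top 3 places in both genotypes. Ada had 491 RPM in Cd36 null and 523 in WT intestine, Xdh had 354 and 452, and Enpp3 had 515 and 426. Klf4 followed with 204 in Cd36 null and 258 in WT intestine, and Slc28a2 had 127 and 122. Nt5e had 144 in Cd36 null and 84.6 in WT intestine, and Pnp was the lowest, with 21.6 and 18.5. Klf4 thus led in both enterocyte groups and came after Ada, Xdh and Enpp3 in both small intestine groups, and Enpp3 led in Cd36 null intestine. The tables were normalised separately and the sample types differ in RNA kit and make-up, so levels were not tested across them.

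None of the 7 genes passed the test between Mfge8 null and WT enterocytes, where 3.21% of the 9432 genes tested did (303 genes; 149, or 1.58%, higher and 154, or 1.63%, lower in Mfge8 null). All 7 genes passed the filter on low values. The count was 0 of 7 with limma on log2(normalised reads + 1) at a Benjamini-Hochberg adjusted p under 0.05, and it was also 0 of 7 with edgeR and with DESeq2 on the recovered reads. At an unadjusted p under 0.05, 1 of 7 passed, against 15.9% of all genes. The median log2 change of the 7 genes was 0.46, against 0.00 over all genes tested, and 5 of 7 changes were positive. In bulk samples, fewer cells of a type and less RNA per cell cannot be told apart.

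**Figure D1:**
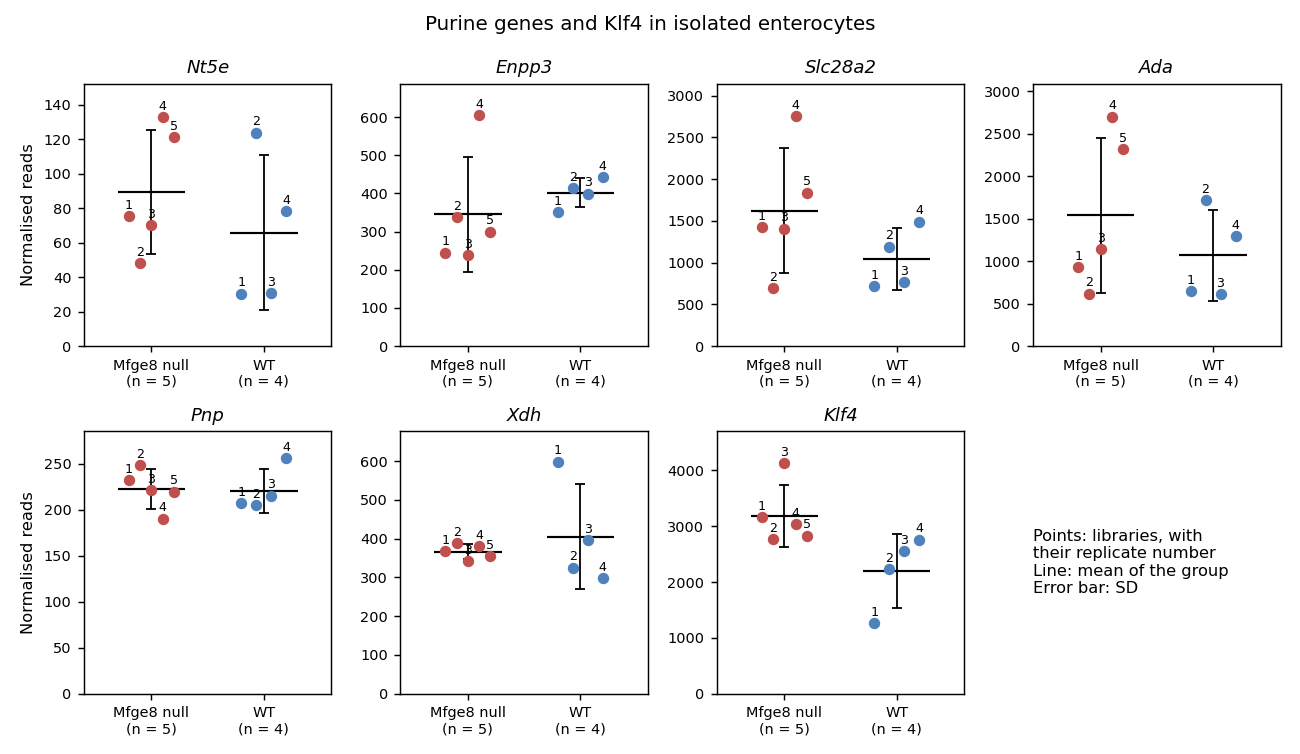
Normalised reads (y axis, linear, from 0) of each gene in the 5 Mfge8 null and 4 WT enterocyte libraries, with the group mean as a line and the SD as an error bar. Klf4 is the only gene whose groups do not overlap, and Nt5e, Ada and Slc28a2 spread about 4-fold or more over the 9 libraries while Pnp does not.

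Among the surface enzymes, Enpp3 varied more in Mfge8 null than in WT enterocytes. Enpp3 had 245, 339, 239, 605 and 300.2 normalised reads in Mfge8 null replicates 1 to 5, against 352, 415, 399.8 and 443 in WT replicates 1 to 4. Apart from Mfge8 null replicate 4, which was the highest of all 9, the Mfge8 null libraries lay below every WT library. The mean was 345 ± 151 in Mfge8 null and 402 ± 38.0 in WT enterocytes (SD, n = 5 and 4), a log2 change of -0.30 with an SE of 0.22 and a limma adjusted p of 0.550. Without Mfge8 null replicate 4 the log2 change was -0.53 and the limma adjusted p 0.114, so Enpp3 did not pass either way. Without Mfge8 null replicate 3 it was -0.19.

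Nt5e had 75.4, 48.2, 69.9, 133 and 121 normalised reads in Mfge8 null replicates 1 to 5, against 30.4, 124, 30.6 and 78.4 in WT replicates 1 to 4. WT replicates 1 and 3 were the lowest of the 9 libraries, and WT replicate 2 was the second highest, so the groups overlapped widely. The log2 change of Nt5e was 0.60 with a 95% interval of -0.21 to 1.41 (limma adjusted p = 0.485), and it was 0.32 without WT replicate 1 or WT replicate 3 and 0.98 without WT replicate 2. Expressed as a fold, that interval covers 0.863 to 2.65.

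Slc28a2, the nucleoside importer, had 1421, 695, 1406, 2754 and 1839 normalised reads in Mfge8 null replicates 1 to 5, against 720.2, 1192, 769 and 1490.1 in WT replicates 1 to 4. Mfge8 null replicate 2 was the lowest and Mfge8 null replicate 4 the highest of all 9 libraries. The mean was 1623 ± 754 in Mfge8 null and 1043 ± 366 in WT enterocytes (SD, n = 5 and 4), with a log2 change of 0.57, an SE of 0.31 and a limma adjusted p of 0.393. The change was 0.34 without Mfge8 null replicate 4.

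Ada, the cytosolic deaminase, had 930.5, 617, 1147, 2703 and 2320.3 normalised reads in Mfge8 null replicates 1 to 5, against 645, 1722, 611 and 1293 in WT replicates 1 to 4. The 2 highest libraries were Mfge8 null and the lowest was WT, but each genotype held libraries near the bottom of the range. The mean was 1543 ± 914 in Mfge8 null and 1068 ± 537 in WT enterocytes (SD, n = 5 and 4), with a log2 change of 0.46, an SE of 0.39 and a limma adjusted p of 0.627. The change was 0.20 without Mfge8 null replicate 4, 0.25 without Mfge8 null replicate 5, 0.26 without WT replicate 1 and 0.23 without WT replicate 3, and it was 0.73 without Mfge8 null replicate 2 or WT replicate 2.

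The enzymes after Ada in the pathway were more even. Pnp had 232, 249, 222, 191 and 219.8 normalised reads in Mfge8 null replicates 1 to 5, against 207, 205, 216 and 256.1 in WT replicates 1 to 4. Its groups overlapped, with means of 223 ± 21.3 in Mfge8 null and 221 ± 24.0 in WT enterocytes (SD, n = 5 and 4). The log2 change of Pnp was 0.01 with a 95% interval of -0.28 to 0.31 (limma adjusted p = 0.981). Pnp2 had 587 ± 60.9 normalised reads in Mfge8 null and 607 ± 93.1 in WT enterocytes. The sum of Pnp and Pnp2 had a log2 change of -0.03 (limma adjusted p = 0.946). It does not depend on how reads were split between Pnp and Pnp2, but it could miss reads that fit several genes. Pnp made up 24.1% to 30.8% of that sum in Mfge8 null libraries and 22.2% to 33.7% in WT libraries.

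Xdh had 367, 389, 342, 380.1 and 356 normalised reads in Mfge8 null replicates 1 to 5, against 599, 325, 396 and 299 in WT replicates 1 to 4. The Mfge8 null libraries lay inside the range of the WT libraries, which WT replicate 1 set at the top. The log2 change of Xdh was -0.09 with a 95% interval of -0.47 to 0.29 (limma adjusted p = 0.868). Without WT replicate 1 the sign turned, with a log2 change of 0.12 (limma adjusted p = 0.810).

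Klf4 had 3162, 2766, 4125, 3039 and 2830.4 normalised reads in Mfge8 null replicates 1 to 5, against 1259, 2231, 2556 and 2759 in WT replicates 1 to 4. Every Mfge8 null library was above every WT library, although the lowest Mfge8 null and the highest WT library were close together. Such a separation was seen in 1 of 7 genes (14.3%), against 6.42% of all genes tested (606 genes). The mean was 3184 ± 549 in Mfge8 null and 2201 ± 665 in WT enterocytes (SD, n = 5 and 4). The log2 change of Klf4 was 0.58 with an SE of 0.22, and its limma p was 0.0162 before and 0.183 after adjustment over all genes, so Klf4 did not pass. Without WT replicate 1 the log2 change of Klf4 was 0.33.

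Ada, Nt5e and Slc28a2 went up and down together from library to library within each genotype. Over the 9 enterocyte libraries, Pearson's r of log2(normalised reads + 1) was 0.93 between Ada and Nt5e (Spearman's rho 0.92), 0.91 between Ada and Slc28a2 (rho 0.83) and 0.86 between Nt5e and Slc28a2 (rho 0.78). After the genotype means were subtracted, r was 0.93, 0.91 and 0.83 for the same pairs. These are descriptions over 9 libraries that share cell preparation and depth, out of 21 pairs among the 7 genes. Without the 2 libraries farthest from the median of Ada, Mfge8 null replicates 4 and 5, r was 0.93 for Ada with Nt5e and 0.81 for Ada with Slc28a2.

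**Figure D2:**
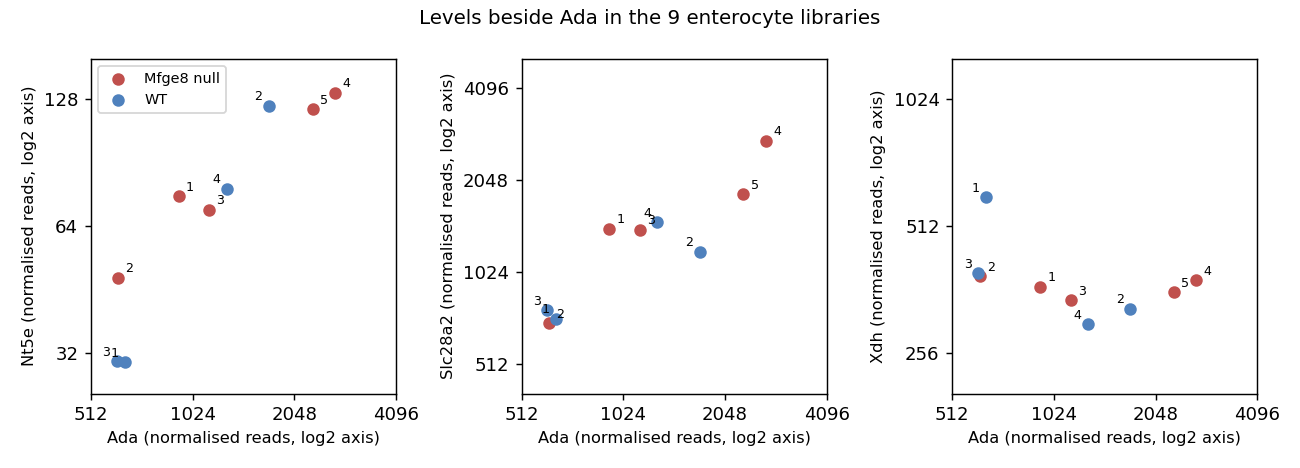
Normalised reads of Nt5e (left), Slc28a2 (middle) and Xdh (right) on the y axis against Ada on the x axis, both on log2 axes, in 5 Mfge8 null and 4 WT enterocyte libraries with replicate numbers. Nt5e and Slc28a2 climb with Ada in both genotypes, with r of 0.93 and 0.91, while Xdh does not (r of -0.49).

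The libraries kept much the same order for the 3 genes. Mfge8 null replicate 4 was the highest for Ada, Nt5e, Slc28a2 and also Enpp3, and Mfge8 null replicate 5 was the next highest for Ada and Slc28a2 and stood at place 3 for Nt5e. WT replicates 1 and 3 and Mfge8 null replicate 2 held the last 3 places for all of Ada, Nt5e and Slc28a2. Highest over lowest library was 4.43-fold for Ada, 4.37-fold for Nt5e and 3.96-fold for Slc28a2. It was 3.28-fold for Klf4, 2.53-fold for Enpp3, 2.003-fold for Xdh and 1.34-fold for Pnp.

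The other pairs were looser. Ada had an r of 0.35 with Enpp3, 0.33 with Klf4, -0.41 with Pnp and -0.49 with Xdh. Xdh and Klf4 had an r of -0.75, which was -0.04 without WT replicates 1 and 4 (WT replicate 1 was the highest library for Xdh and the lowest for Klf4). Across the 9431 other genes tested, Nt5e stood at place 8 and Slc28a2 at place 16 when genes were ordered by r with Ada from the highest, whereas Enpp3 stood at 2002, Klf4 at 2120, Pnp at 7780 and Xdh at 8259. The 3 genes outside the set with the highest r with Ada were Ifrd1 (r = 0.97), 2010107G12Rik (r = 0.96) and Myo10 (r = 0.95). None of these 3 passed the test between genotypes, with limma adjusted p of 0.578 for Ifrd1, 0.804 for 2010107G12Rik and 0.584 for Myo10.

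**Figure D3:**
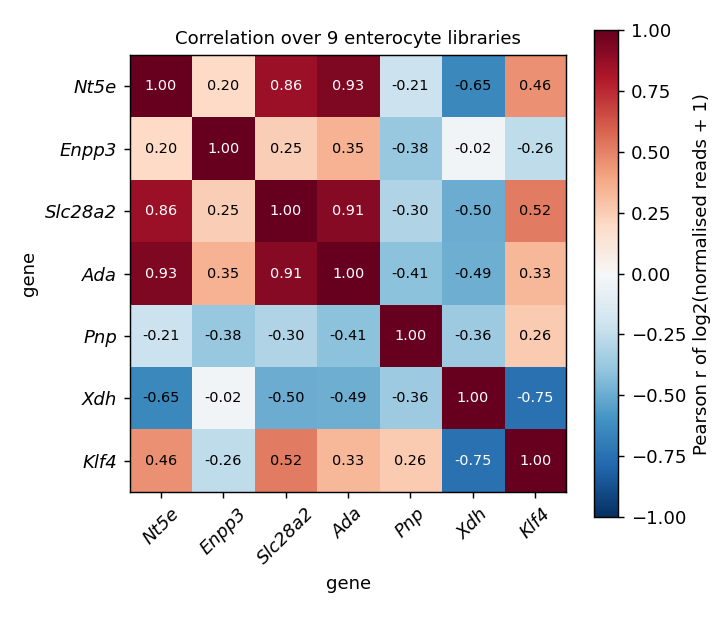
Pearson's r of log2(normalised reads + 1) between each pair of the 7 genes over 9 enterocyte libraries, printed in each cell and coloured from -1 to 1. Nt5e, Slc28a2 and Ada form the block of high values (0.86 to 0.93), and Xdh is negative with all 6 others.

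Several library properties moved with these levels. A score for position along the intestine was the mean log2 level of proximal minus ileal marker genes. It had an r of -0.20 with Ada, -0.25 with Nt5e and -0.22 with Slc28a2, but 0.55 with Enpp3, 0.60 with Xdh and -0.59 with Klf4. The score ran from -1.92 to 1.49 in Mfge8 null and from -0.70 to 1.63 in WT libraries. Of 4 ileal markers tested (median log2 change 0.69), 1 passed, Slc51b, higher in Mfge8 null (log2 change 0.81, limma adjusted p = 0.00615). Of 4 proximal markers tested (median -0.57), 1 passed, Onecut2, lower in Mfge8 null (log2 change -1.23, limma adjusted p = 0.0401). With the score as a covariate, the log2 change of Klf4 was 0.47. Log10 of the reads per library had an r of 0.16 with Ada, 0.04 with Nt5e and 0.17 with Slc28a2. Gzma, a granzyme of intraepithelial lymphocytes, had an r of 0.67 with Ada, 0.76 with Nt5e and 0.69 with Slc28a2. The 10 T cell and intraepithelial lymphocyte markers had a median r of 0.66 with Ada, the 7 goblet cell markers 0.64, and all genes -0.01. That median was 0.51 for 2 myeloid, 0.50 for 4 Paneth cell and 0.44 for 3 tuft cell markers. For 6 markers of RNA quality or stress of cell isolation it was 0.44 too. For 4 proximal markers it was -0.42, and for 7 mid-villus markers -0.32. The T cell markers summed to 3194 to 7464 normalised reads in Mfge8 null libraries and 1166 to 3464 in WT libraries, with all 10 positive in log2 change, a median of 0.96 and 0 of 10 past the limma test. Nt5e and Ada are also expressed by lymphocytes, and the part of these cells in the levels was not tested.

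Other villus tip markers moved less with Ada. Across 8 measured tip markers outside the set, the median r with Ada was 0.31, and Krt20, a keratin of differentiated epithelium, had an r of 0.54 with Ada and 0.81 with Klf4. Vil1, a microvillus protein of all enterocytes, had an r of -0.11 with Ada and 0.75 with Klf4. Apoa4, an apolipoprotein gene of the tip, had an r of -0.17 with Ada and -0.63 with Klf4. Of 6 villus bottom markers tested, 2 passed between genotypes, both higher in Mfge8 null enterocytes, and the median log2 change of the 6 was -0.07. They were Reg3b (log2 change 2.77, limma adjusted p = 1.92e-04) and Reg3g (log2 change 2.55, limma adjusted p = 3.62e-04). Of 7 mid-villus markers tested, 0 passed, with a median of 0.38. Of the 8 tip markers tested, 1 passed between genotypes. That gene, Cdkn1a, a cell cycle inhibitor, rose to 972 ± 156 normalised reads in Mfge8 null enterocytes, against 605 ± 94.3 in WT enterocytes (SD, n = 5 and 4, log2 change 0.68, limma adjusted p = 0.0246), but its adjusted p was 0.0696 without Mfge8 null replicate 3, 0.0575 without Mfge8 null replicate 5, 0.108 without WT replicate 1 and 0.0919 without WT replicate 2.

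In the small intestine, Nt5e was the 1 of 7 genes (14.3%) at least 1.5-fold different between the Cd36 null and WT preparations, where 8.99% of 9314 genes were (837 genes; 347, or 3.73%, higher and 490, or 5.26%, lower in Cd36 null). Nt5e had 123, 132 and 136 normalised reads in Cd36 null replicates 1 to 3, against 71.1, 84.7, 75.9 and 68.8 in WT replicates 1 to 4. All 3 Cd36 null libraries were above all 4 WT libraries. The ratio over summed reads (407 in Cd36 null and 296 in WT) was 1.74, with an exact 95% interval of 1.49 to 2.02 that covers counting error only, and the size of its log2 difference, 0.79, was larger than that of 95.7% of genes. A lower bound of 1.49 lies just under the 1.5-fold limit.

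**Figure D4:**
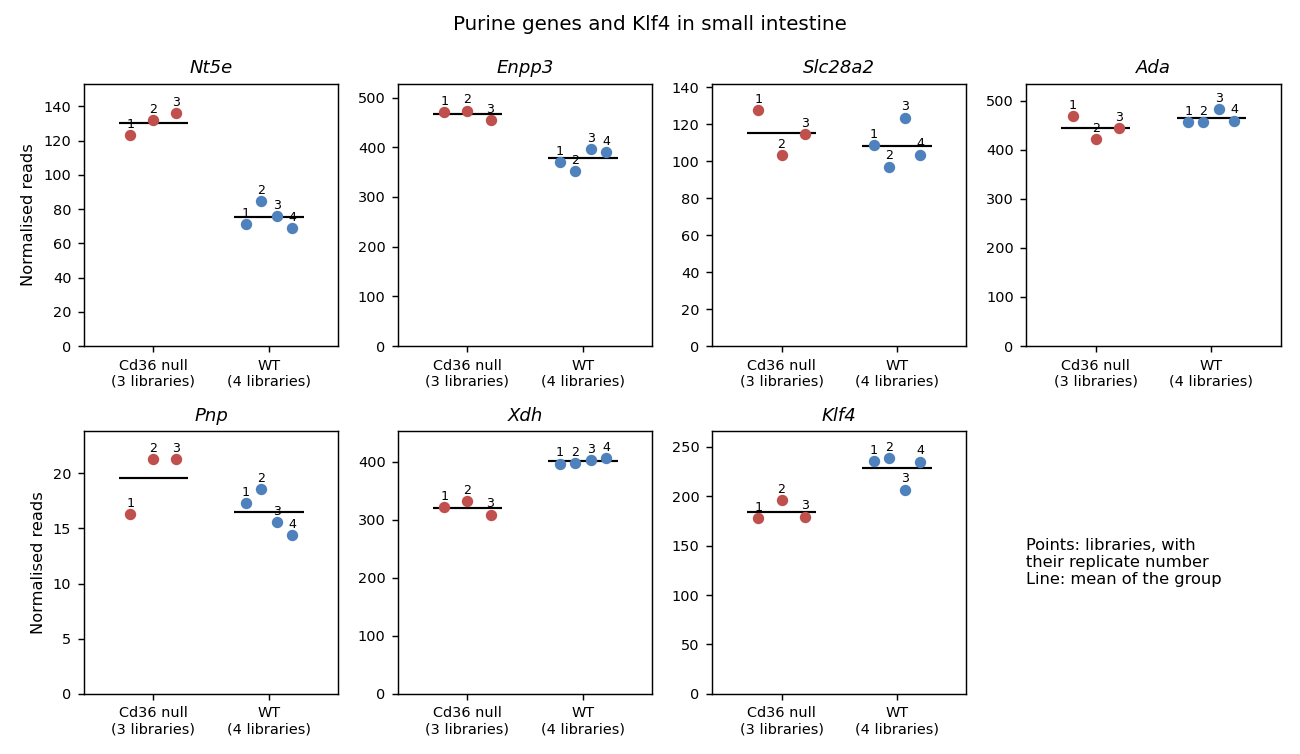
Normalised reads (y axis, linear, from 0) of each gene in the 3 Cd36 null and 4 WT small intestine libraries, with the group mean as a line. Nt5e and Enpp3 are higher and Xdh and Klf4 lower in every Cd36 null library, while Ada, Slc28a2 and Pnp overlap.

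Enpp3, which acts just before Nt5e, was higher in Cd36 null intestine as well, by less than 1.5-fold. Enpp3 had 471, 474 and 455 normalised reads in Cd36 null replicates 1 to 3, against 371, 352, 397 and 391 in WT replicates 1 to 4. The groups did not overlap, and the ratio was 1.24 (1.15 to 1.33). Slc28a2 had 127.6, 103 and 115 normalised reads in Cd36 null replicates, against 109, 97.1, 124 and 104 in WT replicates. Its groups overlapped, and the ratio was 1.07 (0.928 to 1.23).

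Ada had 469, 422 and 444 normalised reads in Cd36 null replicates 1 to 3, against 457, 456, 483 and 459.7 in WT replicates 1 to 4. The groups overlapped, and the ratio of 0.961 had an interval of 0.896 to 1.03. Pnp had 16.3, 21.3 and 21.3 normalised reads in Cd36 null replicates, against 17.3, 18.6, 15.6 and 14.4 in WT replicates. At 61 summed reads in Cd36 null and 65 in WT its ratio of 1.19 had a wide interval of 0.822 to 1.71. No difference in Pnp was thus detectable at this depth. Pnp2 had 53.2 normalised reads in Cd36 null and 61.5 in WT, lower without overlap, with a ratio of 0.863 (0.704 to 1.06). The sum of Pnp and Pnp2 was 68.5 to 77.7 in Cd36 null and 71.8 to 84.7 in WT libraries, with overlap.

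Xdh, at the end of the pathway, had 321, 332 and 309 normalised reads in Cd36 null replicates 1 to 3, against 397, 398, 403 and 406 in WT replicates 1 to 4. Every Cd36 null library was below every WT library, and the ratio was 0.799 (0.737 to 0.865). Klf4 had 178, 196 and 179 normalised reads in Cd36 null replicates, against 235, 239, 207 and 235 in WT replicates. It too was lower without overlap, with a ratio of 0.803 (0.722 to 0.893).

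Separation without overlap was thus seen for 4 of 7 genes (57.1%), Nt5e and Enpp3 higher and Xdh and Klf4 lower in Cd36 null, against 16.5% of all genes (1539 genes). That share includes genes with few reads, in which counting error hides separation more easily. Separation was also seen for 6 of 7 goblet cell markers, 4 of 7 mid-villus markers and 4 of 8 tip markers tested. For enterocyte identity markers it was 2 of 6, so separation was not particular to the 7 genes. The median log2 difference of the 7 genes was 0.09, against -0.0041 over all genes, and 4 of 7 were positive. Ada, Nt5e and Slc28a2, which varied together in enterocytes, had ratios of 0.961, 1.74 and 1.07 here. Among the 7 libraries, highest over lowest was 1.15-fold for Ada, 1.31-fold for Slc28a2 and 1.98-fold for Nt5e.

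**Figure D5:**
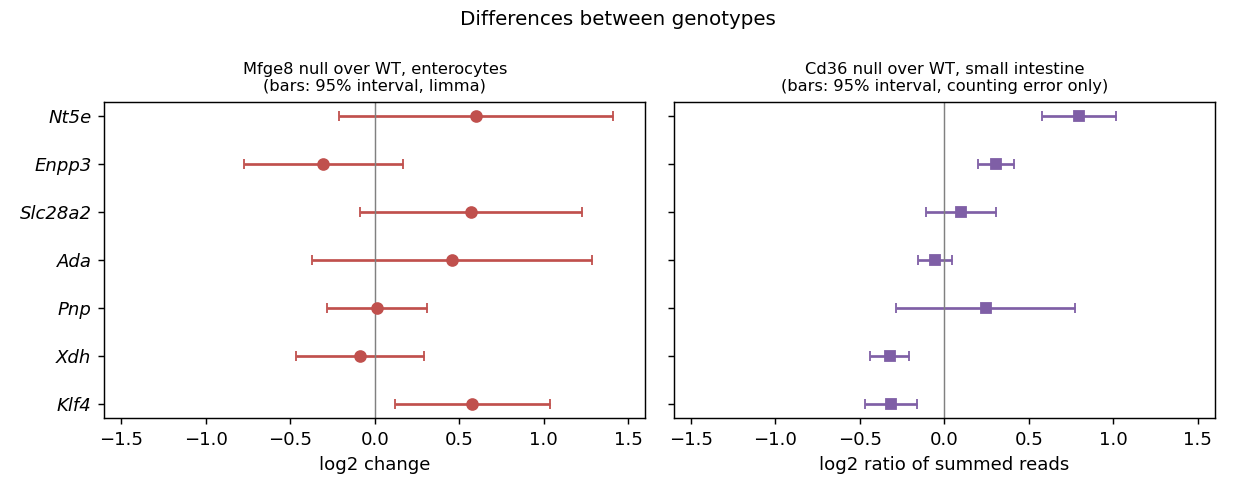
Left, log2 change of each gene in Mfge8 null over WT enterocytes with its 95% interval from limma (n = 5 and 4). Right, log2 ratio of summed reads in Cd36 null over WT small intestine with a 95% interval of counting error only. On the left only the interval of Klf4 clears 0, before adjustment. On the right those of Nt5e and Enpp3 lie above 0 and those of Xdh and Klf4 below it.

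Other contents of the small intestine preparations differed too. Crypt and proliferation markers summed to 226 to 249 normalised reads in Cd36 null and 319 to 355 in WT libraries, with 2 of 6 tested at least 1.5-fold lower. Villus tip markers outside the set summed to 8217 to 8287 in Cd36 null and 7191 to 7423 in WT libraries. Villus bottom markers summed to 9323 to 9497 and 10952 to 11251, and enteroendocrine markers to 342 to 355 and 245 to 268. Tuft cell markers summed to 93.4 to 113 normalised reads in Cd36 null and 47.8 to 50.3 in WT libraries, with 2 of 2 tested markers at least 1.5-fold higher. T cell markers summed to 626 to 649 in Cd36 null and 756 to 982 in WT libraries, with 5 of 10 at least 1.5-fold lower. Stromal markers summed to 9.95 to 11.7 in Cd36 null and 19.2 to 33.3 in WT libraries, and ileal markers summed to 689 to 748 in Cd36 null and 983 to 1046 in WT libraries. Of the 5 ileal markers, 2 were at least 1.5-fold lower in Cd36 null, Fabp6 (69.2 normalised reads in Cd36 null and 278 in WT) and Slc10a2 (9.15 and 14.5), and 1 was higher, Fgf15 (24.8 and 7.84). Their part in the Nt5e difference was not tested.

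The wider purine pathway and the Klf family were described with 7 lists of 89 genes in all. Of 14 measured salvage and breakdown genes outside the set, 0 passed in enterocytes, with a median log2 change of -0.20. Gda, guanine deaminase, was the most abundant of them, with 6040 ± 1020 normalised reads in Mfge8 null and 4745 ± 935 in WT enterocytes (SD, n = 5 and 4), a log2 change of 0.35 and a limma adjusted p of 0.395. Small intestine held 3760 normalised reads of Gda in Cd36 null and 3913 in WT. Of 13 list genes measured there, Nt5m, a mitochondrial nucleotidase, was higher (14.2 in Cd36 null and 8.68 in WT, ratio 1.63, 1.02 to 2.64) and Dguok, a mitochondrial deoxyguanosine kinase, was lower (8.69 and 13.7, ratio 0.631, 0.382 to 1.02), with a median log2 difference of -0.01 over the list. Neither stayed past 1.5-fold with every library left out in turn. The log2 difference of Nt5m was 0.65, but 0.51 without Cd36 null replicate 2 and 0.47 without WT replicate 1. That of Dguok was -0.60, but -0.50 without Cd36 null replicate 1 and -0.47 without WT replicate 3.

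Of 9 measured genes of purine synthesis from small precursors, 1 passed in enterocytes. Prps1, which makes the ribose donor of purine synthesis and salvage, fell to 38.3 ± 10.8 normalised reads in Mfge8 null, against 77.8 ± 18.7 in WT enterocytes (SD, n = 5 and 4). Its log2 change was -1.01 with an SE of 0.23 (limma adjusted p = 0.0211). The adjusted p was 0.0578 without Mfge8 null replicate 3, 0.102 without WT replicate 1 and 0.0685 without WT replicate 3. The median of the 9 genes was 0.30. Adss, which makes the precursor of AMP from IMP and is the most abundant of them, had 283 ± 42.6 normalised reads in Mfge8 null and 265 ± 47.1 in WT enterocytes. None of 9 in the small intestine (0 of 9) was past 1.5-fold, with a median of -0.24, and Prps1 had 10.3 normalised reads in Cd36 null and 12.3 in WT.

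Of 9 measured enzymes of nucleotide hydrolysis outside the set, not all of them at the cell surface, 0 passed in enterocytes, with a median log2 change of -0.06. Alpi, the brush border alkaline phosphatase, had 1044 ± 131 normalised reads in Mfge8 null and 1090 ± 288 in WT enterocytes (log2 change -0.03), and Entpd5, a nucleoside diphosphatase, had 190.1 ± 69.6 and 223 ± 41.8. Entpd1 (CD39), which in other tissues supplies AMP to CD73, was below the filter in both tables and is named here for that reason. Of 8 measured in the small intestine, 1 was past 1.5-fold, Enpp4, a relative of Enpp3, with 12.8 normalised reads in Cd36 null and 5.601 in WT, a ratio of 2.30 (1.33 to 4.06). Entpd7, an intracellular member of the family, had 611 in Cd36 null and 490 in WT, with a ratio of 1.24, and Alpi had 583 in Cd36 null and 529 in WT. The median of the 8 genes was 0.18.

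Of 7 measured transporters of nucleosides, nucleobases and urate, 0 passed in enterocytes (median log2 change 0.15) and 0 of 6 were past 1.5-fold in the small intestine (median -0.34). Abcg2, which exports urate into the lumen, had 377 ± 36.5 normalised reads in Mfge8 null and 338 ± 23.9 in WT enterocytes. Small intestine held 186 normalised reads of Abcg2 in Cd36 null and 241 in WT, a ratio of 0.769 (0.692 to 0.853) without overlap, so Abcg2 and Xdh, the enzyme that makes urate, were both lower in the Cd36 null preparation. Slc2a9, a urate carrier, had 185.5 ± 61.8 in Mfge8 null and 145 ± 22.3 in WT enterocytes. Of the genes for the molybdenum cofactor that Xdh needs, 0 of 4 passed in enterocytes (median -0.26) and 0 of 5 were past 1.5-fold in the small intestine (median -0.06). Mocs2, the most abundant of these, had 583 ± 23.6 in Mfge8 null and 682 ± 173 in WT enterocytes, and Mocos, which activates Xdh by adding sulfur to the cofactor, had 87.3 ± 18.2 and 77.6 ± 12.8.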

How the data were processed

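RNA was measured by 3' tag sequencing in 16 libraries. The submitters' processing notes name DESeq2 2.11.40, HTSeq 0.91, HISAT2 2.1.0 and Trimmomatic 0.38.1, and build mm10; their settings, the counting strand and any collapsing of molecular identifiers are not given in the sources used here. The deposited values are a normalised signal, which the authors gave as 1 table per experiment. They were whole multiples of 1 step per library, within 1e-04, so reads were recovered as value over step for 100% of values; for WT replicate 4 and Mfge8 null replicate 3 the step is close to 1 and less certain. In the small intestine, 95% intervals are exact and cover counting error only; in enterocytes they come from limma and reflect the spread between libraries.

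Genes with at least 5 normalised reads in at least 4 (enterocytes) or 3 (small intestine) libraries were tested (9432 and 9314 genes). For enterocytes, log2(value + 1) was fitted by limma-trend (limma 3.58.1 under R 4.3.3, 2-sided), and genes with a Benjamini-Hochberg adjusted p under 0.05 were called; log2 changes on this scale understate low genes. Count tests on recovered reads used edgeR 4.0.16, which called 317 genes in enterocytes, and DESeq2 1.42.0, which called 430. In the small intestine, libraries of 1 genotype counted as 1 sample, and at least 1.5-fold on the same scale stands in for a test. The fit was tested on simulated data. The genes and all lists were chosen with earlier results of these data known. Named genes are all members, list genes that passed, the 2 most abundant of each list and the 3 nearest to Ada; others are marked in the text. Alternatives were scaling, pseudocount, filter, tool, regional score, replicate block and each library left out.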

Additional observations from a re-analysis of the deposited data

Results flagged for a closer look

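Enpp3 in Mfge8 null enterocyte replicate 4 was at 605 normalised reads, and its gap to the nearest other Mfge8 null library was 0.727 of the range of the 5 libraries, above Dixon's critical value of 0.71. Of 14 groups of enterocyte libraries examined this way, 1 was picked out, and chance alone picks out about 1 in 20. The same library was also the highest of the 9 for Ada, Nt5e and Slc28a2.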

How the results depend on the processing

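In enterocytes 0 of the 7 genes passed under any of 19 alternatives, and Ada, Nt5e, Slc28a2, Enpp3 and Klf4 kept their direction in all 19. The log2 change ran from 0.20 to 0.73 for Ada, 0.32 to 0.98 for Nt5e, 0.34 to 0.90 for Slc28a2 and -0.53 to -0.076 for Enpp3. That of Klf4 ran from 0.33 to 0.71 and its adjusted p from 0.0909 to 0.479. Pnp changed sign 7 times around 0, with -0.0023 under TMM scaling, -0.0033 with edgeR, -0.023 with a regional score as covariate, and -0.029 to -0.0044 without 1 library (Mfge8 null replicate 1 or 2, WT replicate 1 or 2; the range without each library in turn was -0.029 to 0.085). Xdh turned to 0.12 without WT replicate 1, in a range of -0.24 to 0.12 over the 19 alternatives (-0.22 to 0.12 without each library in turn). The cause was not tested. Over all genes, the 303 calls became 135 to 387 without 1 library (185 without Mfge8 null replicate 3, 200 without Mfge8 null replicate 5, 135 without WT replicate 1, 169 without WT replicate 2). With the replicate number as a block the count was 233 genes and 0 of 7 members; deviations of same-numbered libraries correlated at -0.12 to 0.21, so the numbers were not taken as pairs. edgeR without the 2 libraries of uncertain step, added after seeing the data, called 255. In the small intestine, a 2-fold limit left 0 of 7 genes and 204 genes in all. A pseudocount of 5 gave 402 genes, without Nt5m (0.49) and Dguok (-0.45), no filter 2331 and a filter of 20 gave 259. Fits over the 7 libraries as if they were separate samples, with limma or edgeR, called 4 of 7 (Nt5e, Enpp3, Xdh and Klf4). Of all 9314 genes, the same fits called 699 with limma and 754 with edgeR, and they compare preparations. Nt5e was past 1.5-fold whichever 1 library was left out. Depth limits Pnp in the small intestine most.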

Other observations

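Other Klf factors were measured beside Klf4. Of 11 tested in enterocytes, 0 passed, 9 of 11 changes were positive and the median log2 change was 0.25. Klf6, the most abundant, had 2113 ± 199 normalised reads in Mfge8 null and 1682 ± 336 in WT enterocytes (SD, n = 5 and 4, log2 change 0.35, limma adjusted p = 0.312). Klf10, which is induced by TGF-beta signalling, had 46.3 ± 9.34 in Mfge8 null and 24.3 ± 10.96 in WT enterocytes (SD, n = 5 and 4, log2 change 0.96, limma adjusted p = 0.0549) and was picked out after its value was seen. Klf5, a factor of proliferating epithelium, had 359.5 ± 43.0 in Mfge8 null and 345 ± 48.8 in WT enterocytes. None of 10 in the small intestine (0 of 10) was past 1.5-fold. The median there was 0.26, against -0.31 for Klf4, and Klf9, a glucocorticoid-responsive factor, had 299.5 normalised reads in Cd36 null and 215 in WT, with a ratio of 1.39 (1.26 to 1.53); it too was named after its value was seen.

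Of the receptors for adenosine and nucleotides, 6 were measured in enterocytes, 0 passed and the median log2 change was 0.03. Adora2b, the epithelial adenosine receptor, had 43.3 ± 24.4 normalised reads in Mfge8 null and 41.2 ± 14.4 in WT enterocytes (SD, n = 5 and 4). Small intestine held 39.2 of Adora2b in Cd36 null and 33.3 in WT (Adora2b was named for its role, after its values were seen). P2ry2, an ATP and UTP receptor and the most abundant of the list, had 145 ± 43.5 in Mfge8 null and 125 ± 56.6 in WT enterocytes (SD, n = 5 and 4), and P2rx4, an ATP-gated channel, had 72.4 ± 8.35 and 90.5 ± 11.5. P2rx7, an ATP receptor of immune cells, was the 1 of 5 past 1.5-fold in the small intestine, with 10.2 in Cd36 null and 16.5 in WT and overlapping libraries.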
